A study of Homo sapiens with 16 samples.

Results

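The mean effect common to 2 knockouts was measured in HAP1 cells as the average of 2 differences, each of a knockout from its own control set. All 16 RNA-seq libraries of the study entered it. Of the 33121 entries of the count table, 15569 genes had enough counts to be tested, and 346 of these met the criterion for a gene in which both knockouts lay beyond both control sets. The criterion had 2 parts. The adjusted p-value of the mean effect had to be under 0.05, and all 8 edited libraries had to lie above, or all below, all 8 control libraries.

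HAP1 is an adherent, near-haploid human line derived from a chronic myeloid leukaemia, in which most genes are present in a single copy. The 4 groups of 4 libraries were SLC30A10 knockout cells (genotype SLC30A10_delta), their control cells (SLC30A10+/+), the second knockout, in which another gene was deleted, and the second control set, which is wild type for that other gene. Poly-A RNA was sequenced in pairs of reads, and no group received a treatment according to the labels. The series title speaks of metal toxicity together with the mitochondrial RNA granule. The same line identifier is given for both control sets and a separate identifier for each knockout, and the labels do not give the number of clones behind a knockout. If each knockout is a single line, the consequences of its deletion and whatever else distinguishes that line cannot be told apart. Nothing in the labels says that the 4 libraries of a group came from separate cultures, so p-values measure the spread between these libraries, which may be technical.

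SLC30A10 encodes a manganese exporter of the cell surface, and cells that lack it accumulate manganese. Manganese is a cofactor of mitochondrial superoxide dismutase and of Golgi glycosyltransferases, and in excess it is toxic to mitochondria. Mitochondrial RNA granules are sites next to the mitochondrial genome where its transcripts are processed and ribosomes are assembled. An average of 2 knockout effects describes what both have in common only where both effects point the same way, because a large effect in either of them moves the average as well.

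Each library held 16058856 to 16648151 counts. At this depth 3 counts, the upper limit that a count of 0 allows, corresponded to 0.181 to 0.187 CPM (counts scaled to a library of 1000000, the level used throughout). Of 12 markers of haematopoietic cells, 8 were at 3 counts or fewer in every library, among them PTPRC, CD33, SPI1, GATA1, ITGAM and LYZ, and 2 of these, MPO and HBG1, were at 0. Entries for the protein-coding genes of the mitochondrial genome were not analysed here.

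SLC30A10 itself had very few reads in every group. The knockout libraries held 3 to 11 counts, their controls 6 to 9, the second knockout 0 to 5 and the second control set 2 to 7. The gene did not pass the filter on low counts. Its levels were 0.418 ± 0.217 CPM in the knockout and 0.472 ± 0.0774 CPM in its control, and 0.138 ± 0.138 CPM in the second knockout and 0.258 ± 0.134 CPM in the second control set (SD, n = 4 each). The ranges overlapped in both experiments. The mean effect was -0.18 on the log2 scale, which an exact two-sided permutation test within each experiment did not separate from 0 (p = 0.189, 4900 relabellings, smallest possible p 0.000408). The labels do not say which bases were deleted, and a short deletion can leave the transcript, so these counts check neither genotype. The other deleted gene was not analysed here.

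The libraries fell into 4 separate clusters in a principal component analysis of log2 CPM. The first component, with 38.1% of the variance, set the knockouts at opposite ends. SLC30A10 knockout libraries lay between 41.8 and 43.6 on it and second knockout libraries between -40.6 and -37.8. Control libraries of both experiments lay from -9.44 to 9.10. The second component, with 28.1% of the variance, set both knockouts on the same side. On it the SLC30A10 knockout lay between 22.4 and 25.3, the second knockout between 23.2 and 27.2, the second control set between -19.6 and -16.7 and the SLC30A10 control set between -36.0 and -27.6. The direction that separated the knockouts from each other thus carried more variance than the direction that both shared.

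**Figure D1:**
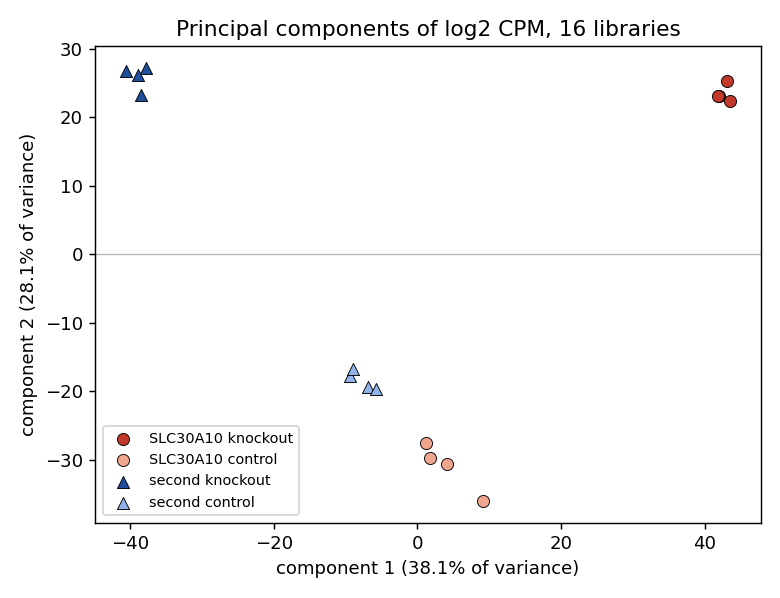
Scores of the 16 libraries on the first and second principal components of log2 CPM over the tested genes, with the share of variance on each axis; each point is a library, coloured by group. Both knockouts lie at 22.4 or above on the second component and both control sets at -16.7 or below, while the first component sets the knockouts apart from each other.

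The mean effect passed an adjusted p of 0.05 (edgeR quasi-likelihood F test, Benjamini-Hochberg) for 5032 genes, 32.3% of those tested. Of these, 2529 (16.2%) were higher and 2503 (16.1%) lower in edited cells. The effects were mostly small. The median size was 0.21 on the log2 scale, 4295 of the 5032 genes (85.4%) changed by less than 1.5-fold, and 294 changed by at least 2-fold. On its own, the SLC30A10 knockout passed the same threshold for 6450 genes (41.4%) and the second knockout for 2132 genes (13.7%). The effects of both knockouts differed for 4873 genes (31.3%), and the control sets differed from each other for 6111 genes (39.3%).

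Few of the 5032 genes were called in both knockouts. In 626 (12.4%) both knockouts passed in the same direction, 299 higher and 327 lower. In 3309 (65.8%) only the SLC30A10 knockout passed, and in 561 (11.1%) only the second knockout did, which by itself does not show that the effects differed. A further 365 (7.25%) passed in neither alone, and 171 (3.40%) passed in both with opposite signs. The reverse case also occurred, since 420 genes passed in both knockouts with opposite signs and had no call for the average. Over the 5032 genes, the median size of the effect was 0.32 in SLC30A10 knockout cells and 0.12 in the second knockout. When the difference between both knockout effects was counted as part of the spread, in a model with a term for the experiment and a single term for editing, 1659 genes were higher and 1540 lower. With the experiment ignored, as 2 groups of 8 libraries, 852 were higher and 690 lower.

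In 150 genes every edited library lay above every control library (0.963% of those tested), and in 196 every edited library lay below (1.26%). These 346 genes are the subject of what follows. That their edited and control libraries do not overlap is the criterion itself, not a further result. Their mean effects ran from 0.12 to 4.05 for the higher genes and from -10.32 to -0.10 for the lower ones, with medians of 0.62 and -0.61. At least 2-fold changes made up 38 of the higher and 75 of the lower genes, and 67 and 97 changed by less than 1.5-fold. The criterion of non-overlap is therefore not one of size. Its border was narrow. LBH, a transcriptional cofactor, just met it with edited libraries at 134 to 169 CPM and controls at 111 to 134 CPM, and NELL2, a secreted neuronal glycoprotein, just missed it with 31.8 to 53.4 against 26.7 to 31.8 CPM. Among lower genes KITLG, the ligand of the receptor KIT, was just inside with 4.12 to 7.21 against 7.21 to 16.99 CPM. SLC25A15, the mitochondrial ornithine carrier, was just outside with 43.5 to 49.3 against 49.3 to 54.4 CPM.

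The effect was not of the same size in both knockouts for many of the 346. Their median size was 0.70 for the higher and 0.65 for the lower genes in the SLC30A10 knockout, against 0.40 and 0.44 in the second knockout. The SLC30A10 effect was the larger in 107 of 150 and 130 of 196. The difference between the effects passed its own test in 59 of the higher (39.3%) and 79 of the lower genes (40.3%), beside 31.3% of all tested genes. Control sets differed from each other in 51 (34.0%) and 69 (35.2%), beside 39.3% of all tested genes, with median differences of 0.17 and 0.14 against 0.16 over all. Each knockout passed its own test in most of them, the SLC30A10 knockout in 145 and 193 and the second in 121 and 172. Over all tested genes the shares were 41.4% and 13.7%. Because the criterion sets each knockout beyond its own control set, such calls follow largely from it and are not a further result. Requiring instead that each knockout differ from each control set by an adjusted p under 0.05 gave 165 higher and 192 lower genes, of which 109 and 156 also met the criterion of non-overlap.

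**Figure D2:**
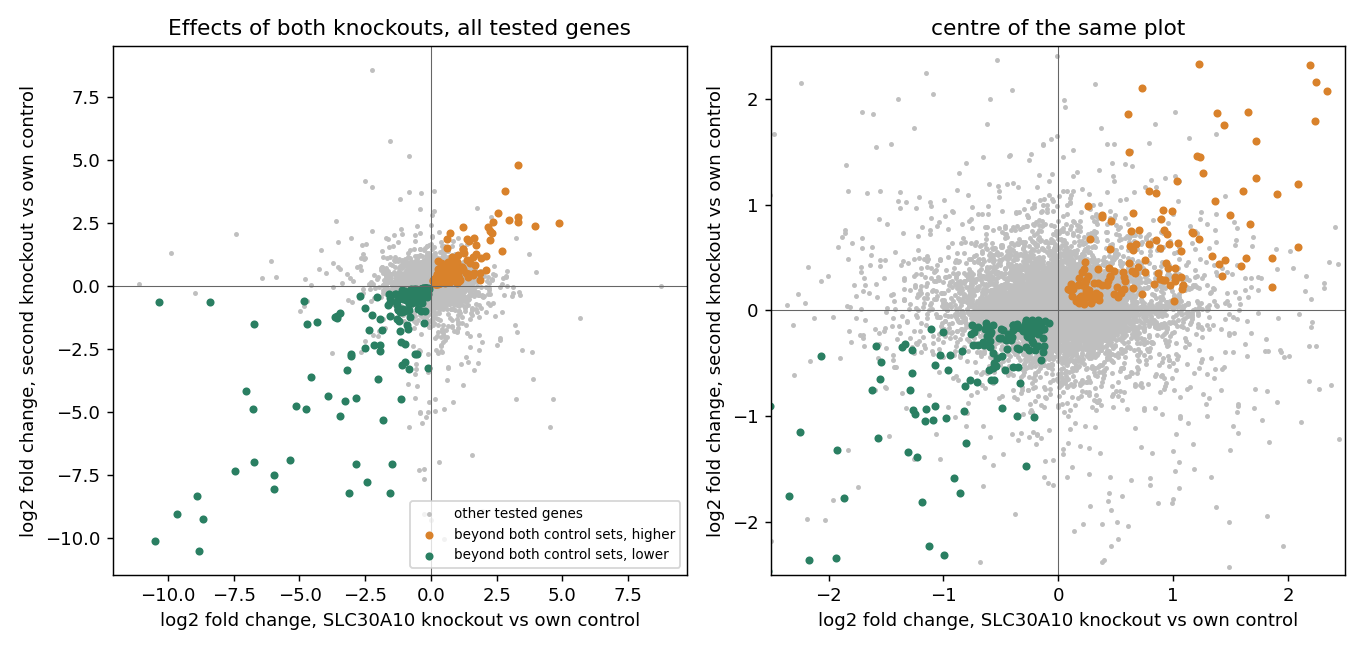
Log2 fold change of each tested gene in the SLC30A10 knockout (x axis) and in the second knockout (y axis), each against its own control, with the centre enlarged on the right; coloured points are the 150 higher and 196 lower genes beyond both control sets. The coloured points lie in the upper right and lower left, and the cloud of grey points is wider along the x axis than along the y axis.

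At the high end the genes were of mixed function. The 12 named here are those with the widest margin, the smallest of the 4 differences between a knockout mean and a control mean, among genes with at least 5 CPM in edited or in control cells. TMEM132E, a transmembrane protein needed for hearing (chr17:34579582-34639318 in GRCh38.p14), had 32.1, 30.3, 34.3 and 29.1 CPM in the SLC30A10 knockout libraries and 17.9, 20.1, 25.01 and 23.1 CPM in those of the second knockout. Its controls held 3.65, 2.49, 2.87 and 3.78 CPM and 2.94, 4.36, 4.28 and 3.34 CPM, in the same order of experiments. All edited libraries were above all controls, as the criterion requires, and the SLC30A10 knockout libraries were the highest. Its level rose 9.84-fold and 5.76-fold, a mean effect of 2.91 ± 0.09 (log2, SE, edgeR quasi-likelihood adjusted p = 1.78e-19). The effects of both knockouts differed (adjusted p = 0.00346).

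CGREF1 encodes a secreted calcium-binding protein with a role in growth control. It had 23.7, 23.6, 23.5 and 23.5 CPM in SLC30A10 knockout cells and 3.37, 3.56, 3.21 and 2.54 CPM in the second knockout, against 0.853, 1.03, 0.671 and 0.610 CPM and 0.612, 0.606, 0.542 and 0.486 CPM in the controls. Above all controls by the criterion, the knockouts lay at very different heights, with the second knockout far nearer the controls. The rise was 29.8-fold in SLC30A10 knockout cells and 5.64-fold in the second, and the difference between them passed its test (log2 2.40 ± 0.30, edgeR adjusted p = 5.76e-07). SLC19A3, a thiamine transporter of the cell surface, had 18.1, 18.7, 17.7 and 17.2 CPM and 14.96, 12.3, 10.8 and 10.7 CPM in the knockouts. Its controls had 4.45, 3.22, 2.99 and 3.48 CPM and 1.96, 2.67, 3.37 and 3.46 CPM. Beside the non-overlap that the criterion requires, the SLC30A10 knockout was the higher of the edited groups. The mean effect of SLC19A3 was 2.21 ± 0.10 (edgeR adjusted p = 3.49e-16), and its size in both knockouts, 5.07-fold and 4.25-fold, was not separated by the test of their difference (adjusted p = 0.368, log2 difference 0.26 ± 0.21).

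STAC, an adaptor protein that binds voltage-gated calcium channels, rose in both knockouts to 20.4 to 23.2 CPM. Its values were 21.3, 22.1, 20.4 and 20.7 CPM and 21.5, 23.2, 21.3 and 21.9 CPM in edited cells and 6.09, 6.13, 6.16 and 7.19 CPM and 7.22, 8.55, 6.81 and 6.26 CPM in controls. The mean effect was 1.66 ± 0.06 with a difference of 0.12 ± 0.12 between knockouts (edgeR adjusted p = 4.43e-18 and 0.509). CLDN1, a claudin of epithelial tight junctions, had 14.9, 14.98, 13.9 and 13.8 CPM and 9.91, 10.9, 9.14 and 10.8 CPM in edited cells. Its control libraries held 4.26, 4.80, 4.15 and 5.12 CPM and 3.24, 2.18, 3.25 and 2.37 CPM, so the second experiment was lower in both its groups. CLDN1 rose by 1.65 ± 0.10 and 1.88 ± 0.12 (log2, SE), and the control sets differed by 0.73 ± 0.14 (adjusted p = 1.68e-04). LXN, latexin, an inhibitor of carboxypeptidases, had 5.22, 7.21, 6.93 and 6.97 CPM in SLC30A10 knockout cells and 7.42, 8.34, 8.36 and 7.93 CPM in the second, against 2.62, 2.25, 2.13 and 2.68 CPM and 2.08, 2.97, 2.11 and 2.31 CPM. It rose by 1.60 ± 0.10 on average (edgeR adjusted p = 3.09e-13), and replicate 1 of the SLC30A10 knockout was the lowest edited library.

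Of the other 6 named higher genes, ZNF256, a KRAB zinc-finger protein, ranged from 4.84 to 7.02 CPM in edited and from 1.04 to 1.64 CPM in control libraries. ANKRD34B, an ankyrin repeat protein, ranged from 9.51 to 11.8 against 2.43 to 5.29 CPM. KIAA1549L, a membrane protein, ranged from 9.97 to 13.5 against 2.07 to 5.12 CPM. For 3 more the reads can be shared with near-identical genes, so their levels are uncertain. FAM127C, now RTL8B, has close paralogs on the X chromosome and ranged from 9.32 to 23.6 against 0.857 to 2.68 CPM. KCNJ12, an inwardly rectifying potassium channel with the near-copy KCNJ18, ranged from 2.88 to 8.09 against 0.547 to 1.77 CPM. A further numbered copy of the symbol PRAME, a cancer-testis antigen, ranged from 10.6 to 12.96 against 3.28 to 5.61 CPM. The mean effects of these 6 lay between 1.34 for the PRAME copy and 3.03 for FAM127C.

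Among the lower genes a group was close to silent in edited cells. In 16 of the 196 every edited library held 3 counts or fewer, and in 3 of the 150 higher genes every control library did. FUT9, which encodes a fucosyltransferase that makes the Lewis x glycan, had 0 counts in all 8 edited libraries. Its controls had 10.3, 10.2, 10.6 and 13.2 CPM and 9.30, 8.001, 9.34 and 7.84 CPM. Against the floor of 3 counts per library, FUT9 was at least 59.6-fold lower without SLC30A10 and at least 46.96-fold lower in second-knockout cells (edgeR adjusted p of the mean effect 2.92e-17). TRPC4, a cation channel, had 1 count in a single edited library and none in the other 7, against 9.75, 11.5, 10.00 and 10.8 CPM and 10.5, 11.8, 11.99 and 10.6 CPM in controls. It was at least 56.6-fold and at least 61.2-fold lower. GABRA5, a subunit of the GABA-A receptor, had no count in edited cells and 6.27, 5.83, 7.01 and 5.37 CPM and 4.16, 3.88, 3.86 and 4.56 CPM in controls, at least 32.9-fold and at least 22.4-fold lower. That none of these 3 overlapped between edited and control cells is the criterion by which they were picked.

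PRRX1, a homeobox factor of mesenchymal cells, had 0.0621, 0, 0.184 and 0.0623 CPM and 0, 0, 0.0606 and 0.0605 CPM in edited libraries, which is at most 3 counts. The controls had 5.54, 5.71, 5.79 and 4.39 CPM and 10.2, 8.67, 12.2 and 10.02 CPM, so the control sets differed from each other as well (log2 -0.94 ± 0.13, edgeR adjusted p = 3.05e-06). WBP5, now TCEAL9, had at most 3 counts in edited libraries and 5.66, 5.95, 5.43 and 5.79 CPM and 15.2, 12.5, 14.3 and 15.98 CPM in controls. Its levels were at least 30.7-fold and at least 79.05-fold lower. Other genes of this kind were DCAF12L2, LINC00693, AMBN, KIF5A, LOC100505817, MLF1, ZNF208, EFEMP1, IRX4 and GALNT5. Of these EFEMP1, an extracellular matrix glycoprotein, had control libraries at 1.14 to 7.04 CPM. It was picked after its values were seen. The 3 genes raised from at most 3 counts were PTGER2, a prostaglandin E2 receptor, LOC101928040 and CPPED1, named because they are so few. CPPED1, a phosphatase, reached the highest level of them, 0.424 to 1.25 CPM in edited libraries.

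Among the remaining named lower genes, 3 kept a level of at least 3.19 CPM in every edited library. NCR3LG1, which encodes B7-H6, the ligand of a natural killer cell receptor, was the most abundant. It had 17.03, 16.7, 14.6 and 17.2 CPM and 11.97, 11.04, 10.96 and 10.6 CPM in edited cells and 62.2, 63.6, 60.5 and 63.6 CPM and 51.3, 54.4, 58.8 and 62.03 CPM in controls. The fall was 1.93 and 2.35 on the log2 scale, with a mean effect of -2.14 ± 0.05 (edgeR adjusted p = 1.25e-22), and it was the greater in the second knockout (difference 0.41 ± 0.10, adjusted p = 0.00164). STXBP2, a Munc18 protein of granule exocytosis, had 4.16, 3.36, 3.19 and 3.49 CPM and 4.11, 3.99, 4.12 and 4.96 CPM against 12.5, 14.4, 12.1 and 12.99 CPM and 15.9, 15.3, 13.3 and 14.3 CPM. Its effects of -1.87 ± 0.11 and -1.77 ± 0.10 were not separated by the test of their difference (adjusted p = 0.668, log2 difference -0.10 ± 0.15). KLF4, a Krüppel-like factor used in reprogramming, had 4.35, 3.79, 5.52 and 3.92 CPM and 4.55, 4.35, 4.97 and 3.75 CPM against 10.6, 11.7, 7.68 and 13.6 CPM and 11.4, 11.3, 11.9 and 10.02 CPM. Its effects were -1.31 ± 0.14 and -1.34 ± 0.14, with a difference of 0.03 ± 0.21 (adjusted p = 0.929).

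In 3 more the size differed or was near the floor in both. SHISA2, a regulator of Wnt and FGF receptor maturation, had 0.870, 0.621, 0.368 and 0.249 CPM and 0.249, 0.184, 0.363 and 0.121 CPM in edited cells and 7.55, 8.26, 8.35 and 8.05 CPM and 4.65, 5.58, 4.52 and 4.98 CPM in controls. It was 15.3-fold and 21.5-fold lower. IAH1, an esterase, had 2.61, 2.36, 2.82 and 3.36 CPM and 0.748, 1.72, 0.727 and 0.908 CPM against 20.5, 18.8, 20.5 and 19.9 CPM and 24.8, 25.5, 19.3 and 20.3 CPM. IAH1 fell further in the second knockout than in the SLC30A10 knockout, by 4.44 against 2.84 (edgeR adjusted p of the difference 1.49e-05). ADAMTS12, a secreted metalloprotease, went the other way. It had 0.373, 0.311, 0.429 and 0.498 CPM and 2.81, 2.39, 1.45 and 1.88 CPM against 4.32, 5.71, 4.88 and 4.63 CPM and 5.08, 4.67, 6.39 and 4.68 CPM. ADAMTS12 fell further in the SLC30A10 knockout, by 3.58 against 1.29, and the difference passed (adjusted p = 3.06e-06).

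**Figure D3:**
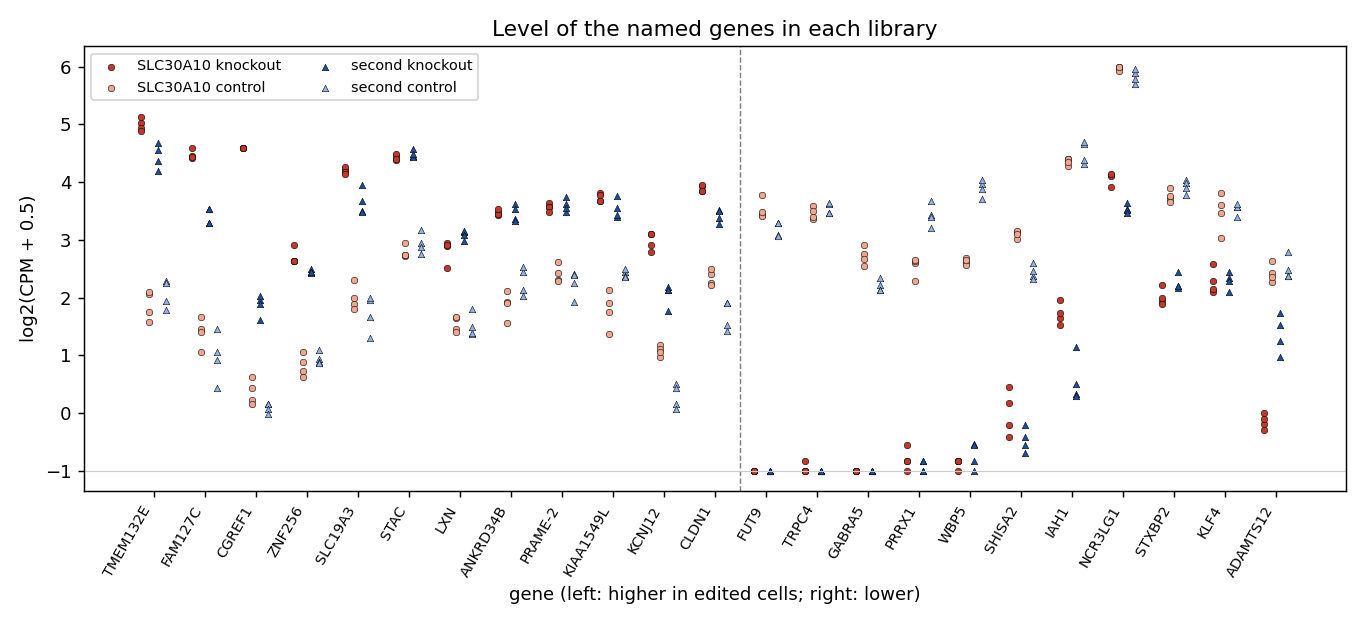
Level of the 23 named genes in each of the 16 libraries, as log2 of CPM plus 0.5, with a point for each library; circles are the SLC30A10 experiment, triangles the second experiment, dark the knockouts and light the controls. The genes were chosen so that the dark points lie wholly above (left of the dashed line) or below (right) the light ones, and the grey line at -1 marks 0 CPM.

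The promoter windows of 5 of these genes are shown because the genes moved together in both knockouts, in either direction. They were picked after the values were seen. Each is the stretch of 250 bases before the RefSeq start in GRCh38.p14, read 5′ to 3′ on the strand of the gene, with CG dinucleotides, the sites of DNA methylation, in capitals. CGREF1 lies on the minus strand (chr2:27119129-27119378), as do SLC19A3 (chr2:227718029-227718278), SHISA2 (chr13:26052017-26052266) and KLF4 (chr9:107489770-107490019), and FUT9 lies on the plus strand (chr6:96015724-96015973). CGREF1 and SLC19A3 were raised and the other 3 were lowered in both knockouts.
CGREF1: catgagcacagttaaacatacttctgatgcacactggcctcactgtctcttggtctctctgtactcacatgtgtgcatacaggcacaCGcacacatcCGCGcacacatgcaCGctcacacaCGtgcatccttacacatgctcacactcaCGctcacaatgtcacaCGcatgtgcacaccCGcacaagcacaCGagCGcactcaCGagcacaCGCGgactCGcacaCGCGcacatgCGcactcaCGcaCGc
SLC19A3: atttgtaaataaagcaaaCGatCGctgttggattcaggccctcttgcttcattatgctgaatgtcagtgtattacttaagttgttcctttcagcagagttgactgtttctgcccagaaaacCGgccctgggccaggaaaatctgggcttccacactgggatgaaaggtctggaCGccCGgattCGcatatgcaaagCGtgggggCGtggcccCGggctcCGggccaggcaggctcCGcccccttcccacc
FUT9: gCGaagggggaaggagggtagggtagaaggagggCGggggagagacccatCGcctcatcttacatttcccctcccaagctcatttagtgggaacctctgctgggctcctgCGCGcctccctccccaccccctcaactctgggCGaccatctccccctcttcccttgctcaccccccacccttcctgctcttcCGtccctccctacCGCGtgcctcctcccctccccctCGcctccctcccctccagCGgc
SHISA2: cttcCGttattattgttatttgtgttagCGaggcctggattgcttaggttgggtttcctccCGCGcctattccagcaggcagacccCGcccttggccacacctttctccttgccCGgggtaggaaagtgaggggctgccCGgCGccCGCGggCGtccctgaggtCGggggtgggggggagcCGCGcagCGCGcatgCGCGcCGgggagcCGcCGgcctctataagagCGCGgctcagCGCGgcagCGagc
KLF4: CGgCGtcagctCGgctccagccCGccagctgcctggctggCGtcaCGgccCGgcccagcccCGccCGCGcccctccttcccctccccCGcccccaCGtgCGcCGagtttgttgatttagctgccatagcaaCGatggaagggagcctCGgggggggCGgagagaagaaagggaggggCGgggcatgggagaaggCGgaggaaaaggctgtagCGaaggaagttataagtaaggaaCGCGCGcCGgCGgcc

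The windows hold 19 CG dinucleotides for CGREF1, 11 for SLC19A3, 11 for FUT9, 26 for SHISA2 and 25 for KLF4. A promoter window was available for 11130 of the tested genes (71.5%), 108 of the 150 higher genes (72.0%) and 148 of the 196 lower genes (75.5%), too few for a comparison of the sets. As a description of those with a window, the median was 21 CG dinucleotides over all tested genes, 24 over the higher and 20 over the lower genes. Fewer than 10 were found in 15.3% of all windows, in 17 of the higher (15.7%) and in 34 of the lower genes (22.97%). The letters TATAAA, searched on both strands, were in none of the 5 windows and in 5.31% of all. Methylation was not measured.

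Gene groups were described by counts, with no test of a list. Of 38 pathway lists with tested members, 25 held at least 1 gene beyond both control sets, and 58 of the 1858 listed genes were beyond (3.12%, against 2.22% of all tested genes). The ZNF zinc-finger genes held 10 of them, 2.31% of the 433 tested, and the list of synaptic vesicle and SNARE proteins held 6 of 59 (10.2%). The other lists held at most 5 each. For the mean effect, 16.2% of all tested genes were higher and 16.1% lower. Percentages given with the lists below are shares of their tested members, to be read beside these and the 2.22% beyond both control sets. Of the 15569 tested genes, the SLC30A10 knockout alone had 3301 higher and 3149 lower, against 1038 and 1094 in the second. A list's count for the mean effect can therefore come mostly from the SLC30A10 knockout. Counts of a list in a single knockout are to be read beside these totals of that knockout.

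Genes of the mitochondrial RNA granule and of mitochondrial RNA processing were lower in 4 (10.8%) and higher in 1 (2.7%) of 37. A single member, FASTKD2, was beyond both control sets. FASTKD2, an RNA-binding protein of the granule needed for the large mitochondrial ribosomal subunit, had 0.249, 0.0621, 0.184 and 0.187 CPM in SLC30A10 knockout cells and 38.8, 33.97, 34.2 and 31.3 CPM in the second knockout. Its controls had 55.9, 60.8, 62.4 and 61.5 CPM and 52.6, 53.2, 55.9 and 54.3 CPM. The SLC30A10 knockout was close to 0, while the second knockout lay under all controls but far above it. The effects were -8.40 ± 0.14 and -0.64 ± 0.06, and their difference was -7.76 ± 0.18 (edgeR adjusted p = 3.93e-22). The mean effect of -4.52 describes neither knockout. It did not pass when the libraries were treated as 2 groups of 8 (-1.71, adjusted p = 0.125).

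Of 74 mitochondrial ribosomal proteins, 10 were higher (13.5%) and 12 lower (16.2%), and only MRPL16 was beyond both control sets. MRPL16, of the large subunit, lay at 85.4 to 104 CPM in edited and 107 to 129 CPM in control libraries, and fell by 0.15 in SLC30A10 knockout cells and 0.47 in the second. Nuclear subunits of complex I (4 higher and 5 lower of 36, 11.1% and 13.9%) and of complexes II to V (1 higher and 11 lower of 40, 2.5% and 27.5%) had no member beyond both control sets. In each list, the members with the smallest adjusted p of the mean effect were called in a single knockout. NDUFA5, a complex I subunit, had 1.02 ± 0.04 in SLC30A10 knockout cells and -0.12 ± 0.05 in the second. ATP5C1, the gamma subunit of ATP synthase, had 0.04 ± 0.05 and 1.45 ± 0.05. Among the genes of the mitochondrial genome, the table held 24 entries that passed the filter, 22 of them with names of transfer RNA genes. Of these 24 entries, 14 were higher and none lower in the mean effect, with a median of 0.57. Over all tested genes 16.2% were higher and 16.1% lower. The median of the entries was 0.85 in SLC30A10 knockout cells and 0.29 in the second, and no entry was beyond both control sets. Poly-A selection captures such short transcripts poorly, so their levels are uncertain.

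Metal handling gave 2 members. MT1E, a metallothionein that binds zinc and copper, lay at 63.1 to 78.02 CPM in edited and 81.5 to 146 CPM in control libraries, a mean effect of -0.48 ± 0.05 (edgeR adjusted p = 6.36e-08), although near-identical metallothioneins can share its reads. It fell by 0.66 in SLC30A10 knockout cells and 0.30 in the second, which differed (edgeR adjusted p = 0.00985), and its control sets differed by as much as the mean effect, 0.49 ± 0.07 (adjusted p = 1.16e-05). Of 6 tested genes, metallothioneins and their activator MTF1, 3 were lower and none higher. FTH1, the ferritin heavy chain, which stores iron, had 487, 527, 549.6 and 517 CPM and 522, 551, 566 and 551 CPM in edited cells against 600.3, 612, 644 and 593 CPM and 632, 639, 653 and 643 CPM. All edited libraries were lower by a small and even amount, 0.24 in SLC30A10 knockout cells and 0.23 in the second. Of 17 zinc and manganese transporters of the SLC30 and SLC39 families, 1 was higher (5.88%) and 2 lower (11.8%), with none beyond both control sets. SLC39A14, an importer of manganese and zinc, rose in the mean effect by 0.39 ± 0.06, with 0.64 ± 0.08 in SLC30A10 knockout cells and 0.14 ± 0.08 in the second. It lies at chr8:22367278-22434129, and a stretch of that chromosome changed as neighbours in SLC30A10 knockout cells. The part of that stretch in the rise was not tested.

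ATF4 targets of the integrated stress response had a median of -0.34 in the SLC30A10 knockout, with 14 of 29 lower and 1 higher, and of 0.35 in the second, with 18 higher and 1 lower. For the mean effect 2 were higher (6.9%) and 3 lower (10.3%). ALDH18A1, an enzyme of proline synthesis, was the member beyond both control sets, at 248 to 267 against 224 to 245 CPM, with effects of 0.18 ± 0.03 and 0.07 ± 0.03. Its effect in the second knockout did not pass by itself (edgeR adjusted p = 0.161). Of 33 genes of cholesterol and fatty acid synthesis, 25 were lower (75.8%) and 2 higher (6.06%) in the mean effect, yet none was beyond both control sets. The median was -0.30 in the SLC30A10 knockout, with 27 lower, and -0.04 in the second, with 7 lower. LSS, lanosterol synthase, had -0.49 ± 0.04 and -0.13 ± 0.04. Cytosolic ribosomal proteins were higher in 42 (50.6%) and lower in 5 (6.02%) of 83 for the mean effect. Their medians were 0.19 in SLC30A10 knockout cells and -0.04 in the second, with none beyond both control sets.

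Among 24 chaperones and unfolded protein response genes, 3 were higher (12.5%) and 10 lower (41.7%). DNAJB9, a chaperone of the endoplasmic reticulum, fell by 0.34 and 0.36. Lysosomal genes were higher in 7 (18.4%) and lower in 14 (36.8%) of 38. Both lysosomal members beyond the control sets were lower, CTSA, the protective protein cathepsin A, at 44.2 to 49.2 against 50.6 to 61.6 CPM and NPC2, a cholesterol-binding protein, at 44.3 to 52.6 against 54.8 to 67.5 CPM. GINS2, of the replicative helicase, fell by 0.64 and 0.18. It lies on chromosome 16, a stretch of which changed as neighbours in the SLC30A10 knockout, and the part of that stretch was not tested. Of 45 replication and mitosis genes, 8 were lower (17.8%) and 4 higher (8.89%). BST2, or tetherin, an interferon-induced restriction factor, had 174, 159, 173 and 173 CPM and 255, 238, 268 and 249 CPM in edited cells and 128, 132, 132 and 129 CPM and 133, 141, 136 and 139 CPM in controls. It rose further in the second knockout, by 0.88 against 0.38 (edgeR adjusted p of the difference 1.43e-07). Of 24 interferon response genes 3 were higher (12.5%, against 16.2% of all tested genes) and 2 lower (8.33%, against 16.1%).

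**Figure D4:**
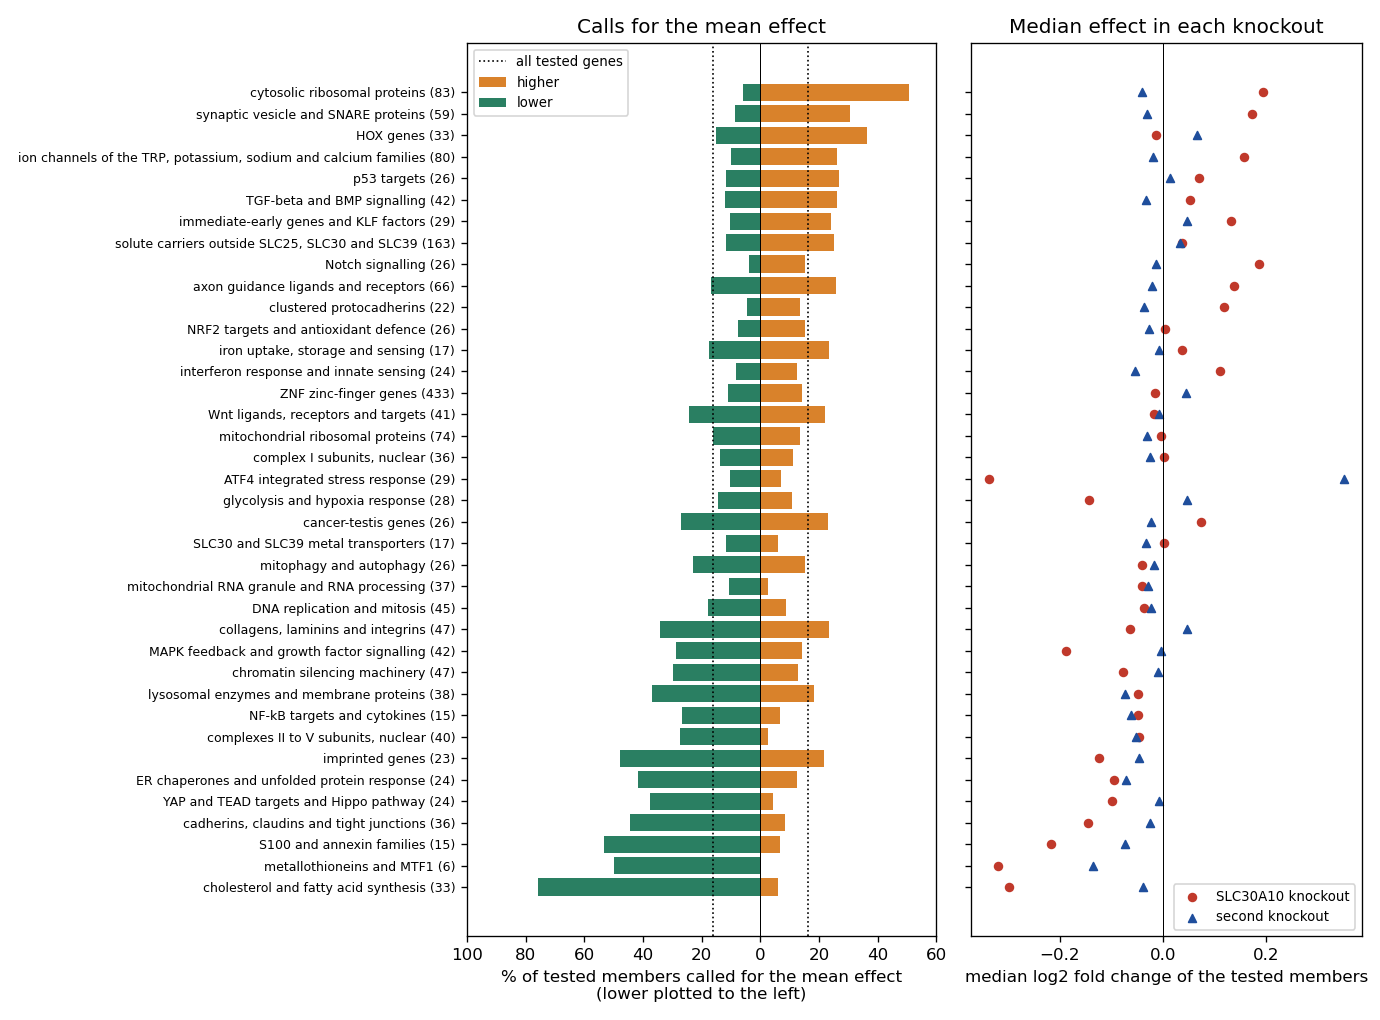
Left, share of the tested members of each gene list (number in parentheses) that were called higher or lower for the mean effect, with dotted lines at the shares over all tested genes; right, median log2 fold change of the members in each knockout. Cholesterol and fatty acid synthesis has 25 of 33 members lower and cytosolic ribosomal proteins 42 of 83 higher, and in both lists the median of the second knockout is near 0.

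Growth factor genes were represented in both directions. Of 42 genes of MAPK feedback and growth factor signalling, 6 were higher (14.3%, against 16.2% of all tested genes) and 12 lower (28.6%, against 16.1%). Beyond both control sets were 5 (11.9%, against 2.22%). MET, the receptor of hepatocyte growth factor, had 98.6, 112, 97.7 and 102 CPM and 117, 108, 95.7 and 107 CPM in edited cells and 61.5, 61.2, 49.5 and 64.4 CPM and 50.1, 46.4, 49.3 and 49.9 CPM in controls. The rise was 0.79 ± 0.07 and 1.13 ± 0.07. PDGFRA, a platelet-derived growth factor receptor, fell from 205, 197, 209.5 and 192 CPM and 246, 228, 212 and 227 CPM in controls to 114, 121, 109 and 112 CPM and 157, 145, 133 and 122 CPM. The fall was 0.81 and 0.71, with a mean effect of -0.76 ± 0.04 (edgeR adjusted p = 3.64e-14). GFRA1, a receptor of glial cell line-derived neurotrophic factor, was at 0 in all libraries of the SLC30A10 knockout and at 2.68, 2.94, 2.06 and 1.82 CPM in the second knockout, against 9.56, 8.74, 14.1 and 7.74 CPM and 4.04, 4.24, 3.50 and 3.10 CPM. SPRY2, a feedback inhibitor of receptor signalling, and KITLG were also lower.

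BMP7, a bone morphogenetic protein, had 16.3, 17.6, 19.8 and 18.8 CPM and 8.35, 7.97, 7.21 and 7.45 CPM in edited cells against 35.8, 35.4, 34.02 and 39.5 CPM and 40.1, 41.9, 36.3 and 35.7 CPM. BMP7 fell by 1.00 in SLC30A10 knockout cells and by 2.31 in the second (edgeR adjusted p of the difference 3.55e-10). INHBB, the beta B subunit of activins and inhibins, rose by 0.93 ± 0.07 and 0.29 ± 0.07. KLF2, a relative of KLF4, rose by 0.69 ± 0.10 on average, with 4.97 to 7.45 CPM in edited and 2.92 to 4.85 CPM in control libraries, so that these 2 Krüppel-like factors moved in opposite directions. FZD1, a Wnt receptor, fell by 0.27 and AMOT, which binds YAP, by 0.41 on average. FZD1 did not pass in the second knockout by itself (edgeR adjusted p = 0.102). Among 66 axon guidance genes, SLIT1, a repulsive ligand, rose by 1.20 and SEMA6A, a semaphorin, fell by 0.26.

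Of 59 synaptic vesicle and SNARE proteins 18 were higher (30.5%, against 16.2% of all tested genes) and 5 lower (8.47%, against 16.1%), and 6 were beyond both control sets. In the SLC30A10 knockout 26 were higher and 5 lower, with a median of 0.17, and in the second 6 were higher and 8 lower, with a median of -0.03. STXBP6, VAMP1 and SYT11 were among those higher, and STXBP2 and STXBP4 were lower. SYT11, a synaptotagmin, had 36.3, 35.2, 35.1 and 37.8 CPM and 10.04, 9.75, 9.26 and 8.72 CPM in edited cells against 6.21, 5.16, 4.88 and 5.91 CPM and 4.10, 3.27, 3.50 and 3.77 CPM. It rose by 2.70 ± 0.08 in SLC30A10 knockout cells and 1.37 ± 0.10 in the second. STXBP6, a binder of SNARE proteins, rose by 2.81 ± 0.41 and 3.74 ± 0.28 from low levels, with 0.747 to 3.68 CPM in edited and 0.0607 to 0.424 CPM in control libraries. Of 80 ion channel genes, 21 were higher (26.2%) and 8 lower (10.0%) for the mean effect. The SLC30A10 knockout had 30 higher and 10 lower and the second had 6 higher and 11 lower, with medians of 0.16 and -0.02. TRPC4, KCNE3 and KCND3 lay below and KCNJ12 above both control sets. Solute carriers outside the metal and mitochondrial families were higher in 41 (25.2%) and lower in 19 (11.7%) of 163. Beside SLC19A3, SLC7A10, a neutral amino acid transporter, rose by 0.93 ± 0.11, and SLC44A5, a choline-transporter-like protein, fell by 2.05 ± 0.15 on average.

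Regulators of cell identity moved both ways within a family. HOXD13 rose by 0.57 ± 0.06 and 0.32 ± 0.06, with 43.97 to 64.6 CPM in edited and 32.1 to 40.7 CPM in control libraries. Its neighbours HOXD11 and HOXD10 fell, HOXD11 to 0.435, 1.12, 0.736 and 0.685 CPM in SLC30A10 knockout cells and to 0 counts in the second, from 2.13, 2.06, 2.07 and 2.62 CPM and 2.94, 1.94, 2.11 and 2.31 CPM. HOXD10 lay at 0 to 0.373 CPM in edited and 0.549 to 2.14 CPM in control libraries. HOX genes direct position along the body axis. In all, 12 of 33 HOX genes were higher (36.4%, against 16.2% of all tested genes) and 5 lower (15.2%, against 16.1%). The imprinted neighbours PEG10 and SGCE fell together, PEG10, a retrotransposon-derived gene, by 0.61 and 0.16, and SGCE, a sarcoglycan, by 0.37 and 0.15. Of 23 imprinted genes 5 were higher (21.7%) and 11 lower (47.8%).

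Of 433 ZNF genes, 61 were higher (14.1%, against 16.2% of all tested genes) and 48 lower (11.1%, against 16.1%). Beyond both control sets were 10 (2.31%, against 2.22%). ZNF256, ZNF354A, ZNF84 and ZNF853 were higher and ZNF208, ZNF665, ZNF788, ZNF841, ZNF606 and ZNF117 were lower. ZNF665 had 0.123 to 0.499 CPM in edited and 1.22 to 2.19 CPM in control libraries, a mean effect of -2.27 ± 0.20. Among cancer-testis genes DAZL, a germ cell RNA-binding protein, rose by 1.08 ± 0.06 and 0.20 ± 0.06, but its control sets also differed, by -0.65 ± 0.06 (edgeR adjusted p = 4.11e-08). Of 47 collagens, laminins and integrins, 11 were higher (23.4%) and 16 lower (34.0%). COL23A1, a transmembrane collagen, was higher by 1.26 ± 0.21 and 1.30 ± 0.17.

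Of 26 mitophagy and autophagy genes, 4 were higher (15.4%, against 16.2% of all tested genes) and 6 lower (23.1%, against 16.1%). OPTN, a mitophagy receptor, fell by 0.31 and 0.30, but its libraries overlapped, with 19.9 to 27.2 CPM in edited and 23.9 to 35.1 CPM in control cells. Of 26 p53 targets, 7 were higher (26.9%) and 3 lower (11.5%). PHLDA3, an inhibitor of AKT signalling, was above both control sets with effects of 1.40 ± 0.15 and 0.44 ± 0.16. Its effect in the second knockout did not pass by itself (edgeR adjusted p = 0.0604). Of 26 genes of antioxidant defence, 4 were higher (15.4%) and 2 lower (7.69%). NQO1, a quinone reductase, had effects of opposite sign, -1.86 ± 0.10 and 0.73 ± 0.09, which both passed. Glycolysis and hypoxia genes were higher in 3 (10.7%) and lower in 4 (14.3%) of 28, and NF-kB targets were higher in 1 (6.67%) and lower in 4 (26.7%) of 15. Of 15 S100 and annexin genes, 1 was higher (6.67%) and 8 lower (53.3%). S100A6, a calcium-binding protein, had a mean effect of -4.64 that came from the second knockout, with 0.0153 ± 0.0307 CPM there against 14.4 ± 2.07 CPM in its control and 14.1 ± 0.445 CPM against 13.9 ± 0.219 CPM in the SLC30A10 experiment (SD, n = 4 each).

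Cadherins, claudins and tight junction genes were lower in 16 (44.4%, against 16.1% of all tested genes) and higher in 3 (8.33%, against 16.2%) of 36. CLDN1, which rose, was the member beyond both control sets. Of 24 YAP, TEAD and Hippo pathway genes, 9 were lower (37.5%) and 1 higher (4.17%). Of 41 Wnt genes, 9 were higher and 10 lower, and of 42 genes of TGF-beta and BMP signalling 11 were higher and 5 lower. Notch genes were higher in 4 (15.4%) and lower in 1 (3.85%) of 26, and clustered protocadherins in 3 (13.6%) and 1 (4.55%) of 22. Genes of chromatin silencing were higher in 6 (12.8%) and lower in 14 (29.8%) of 47. The Notch, protocadherin and chromatin lists held no gene beyond both control sets.

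Lineage markers also changed. Since these are bulk libraries of a cell line, fewer cells of a kind and less RNA per cell cannot be told apart. Of 7 tested mesenchymal markers 6 were lower (85.7%) and 1 higher (14.3%) for the mean effect. In the SLC30A10 knockout 5 were lower and 1 higher, with a median of -0.81. In the second knockout 2 were lower and 3 higher, with a median of 0.16. PRRX1 and PDGFRA were below and THY1, a surface glycoprotein, above both control sets. The summed level of the 12 mesenchymal markers was 633 to 654 CPM in SLC30A10 knockout cells and 1108 to 1177 CPM in its control, but 857 to 1095 CPM in the second knockout and 840 to 1033 CPM in its control. The sum thus fell without overlap in the first experiment and overlapped in the second. TUBB3, a neuronal tubulin, fell by 0.54 and 0.52, with 140.2 to 178 CPM in edited and 202 to 235 CPM in control libraries. Like GINS2 it lies on chromosome 16, a stretch of which changed as neighbours in the SLC30A10 knockout. The part of that stretch in its fall was not tested. The neural markers as a sum did not fall in the second knockout. That sum was 2602 to 2768 CPM in the SLC30A10 knockout and 2549 to 3455 CPM in its control, which overlapped, and 3879 to 4486 CPM in the second knockout against 3314 to 3791 CPM, which did not. SOX2 made up most of the sum, with 3460 to 4081 CPM in the second knockout against 2750 to 3244 CPM in its control. NES went the other way there, with 214 to 241 against 287 to 320 CPM. Of 9 tested neural markers, 3 were called higher and 3 lower in the second knockout. Of 12 haematopoietic markers 2 were tested. RUNX1, a haematopoietic transcription factor, fell by 0.82 and 0.96. KIT, the receptor of KITLG, had 13.2, 16.3, 14.2 and 14.3 CPM in the SLC30A10 knockout against 7.80, 7.89, 5.91 and 10.5 CPM, and 8.92, 8.40, 8.78 and 7.51 CPM in the second knockout against 13.2, 13.8, 12.6 and 11.5 CPM. It was thus above its control in the first experiment and below it in the second. The sum of all 12 lay on the same sides, with 17.4 to 20.1 CPM against 13.1 to 16.2 CPM and 10.3 to 12.4 CPM against 17.98 to 20.2 CPM. KIT and RUNX1 made up nearly all of this sum, and RUNX1 fell in both knockouts. The sides of the sum thus repeat those of KIT and say nothing about the other markers. Summed epithelial markers were 90.0 to 98.3 CPM in the SLC30A10 knockout against 71.6 to 80.4 CPM, and 63.2 to 68.4 CPM in the second knockout against 70.2 to 73.2 CPM. The sums thus lay on opposite sides of their controls, while CLDN1 rose in both. CLDN1 is itself part of the sum, with 13.8 to 14.98 CPM in the SLC30A10 knockout against 4.15 to 5.12 CPM in its control. Of 7 tested epithelial markers, 1 was higher (14.3%) and 4 lower (57.1%) for the mean effect. In the SLC30A10 knockout 3 were higher and 2 lower, and in the second 1 was higher and 4 lower. The part of these markers in the other results was not tested.

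By position, the 334 members that could be placed in RefSeq lay on most chromosomes. The share of tested genes beyond both control sets ran from 1.25% on chromosome 6 to 4.20% on chromosome 13 among autosomes, and was 3.41% on the X chromosome. The median effect on the X chromosome was 0.36 in SLC30A10 knockout cells and -0.01 in the second. In that knockout, stretches of chromosomes 8, 16 and X changed as neighbours, and 29 of the 346 members (18 higher and 11 lower) lay among the 662 tested genes there. Without those genes 132 higher and 185 lower members were left. Neighbouring members were few, with 8 pairs of tested neighbours that were both beyond the control sets in the same direction. Among them were KCND3 and CTTNBP2NL, GAS6 and RASA3, MAF and CMC2, HOXD11 and HOXD10, SGCE and PEG10, NUDT18 and HR, and DMD and TMEM47. Where the use of strand in counting is not known, overlapping genes in such pairs can share reads.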

How the data were processed

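Poly-A RNA of 16 HAP1 libraries, 4 in each of 4 groups given by genotype and title, was sequenced in pairs of reads, per the labels' protocols. The authors deposited whole-number counts per gene symbol and a normalized table, in which each column equals its count column times a constant (largest deviation 5.13e-06 counts). The deposited normalized signal served only as an alternative scaling. HISAT2, featureCounts, DESeq2, hg38 and GRCh38 are named in the submitters' processing notes, and versions, annotation and use of strand are not given in the sources used here. A symbol recurs as a numbered copy in 3103 entries (440 tested) and 28 entries are symbols turned into dates, which are not named. Column totals ran from 16058856 to 16648151 counts.

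Counts were fitted with edgeR 4.0.16 (R 4.3.3), with trimmed mean of M-values scaling, a filter (minimum count 10, minimum total 15) and a mean for each of the 4 groups. The contrast was the average of both knockout effects, each against its own control set. Quasi-likelihood F tests were adjusted by Benjamini-Hochberg over 15569 genes, with a threshold of 0.05. Log2 fold changes are given ± SE, and levels as CPM. Floors of 3 counts cover counting error only. SLC30A10 was compared with an exact permutation test within experiments. The procedure was tested on simulated data. Replicate pairs differed by more than sampling noise (chi-square per degree of freedom 1.63 to 6.69). Names, places and promoter windows came from NCBI RefSeq, GRCh38.p14.

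The members, gene lists and rules were chosen with earlier results of these data known. Named were the 12 highest and 12 lowest genes by margin with at least 5 CPM, up to 3 members of each list beyond both control sets (or the 2 with the smallest adjusted p), and genes at the border. Markers of other cell types were listed too. Alternatives were other scalings, DESeq2 1.42.0, other filters, thresholds and designs, numbered copies summed, other borders, leaving out each library and, chosen after seeing the data, omission of the chromosome stretches that changed together. The second deleted gene and a few other genes are not reported here.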

Additional observations from a re-analysis of the deposited data

Results flagged for a closer look

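The levels of 23 genes named by margin and of SLC30A10, the total counts and 2 principal components were looked at in each group of 4 libraries. In 9 of 103 such sets of values, the highest or lowest library stood further from the others than the 95% limit of Dixon's test allows, where chance gives about 5.15. In the SLC30A10 knockout, replicate 1 was apart with 23.74 CPM for CGREF1, with 7.023 CPM for ZNF256, with 5.22 CPM for LXN and with 0.0 CPM for WBP5, and replicate 2 with 0.06215 CPM, a single count, for TRPC4. For CGREF1 the other replicates lay at 23.54 to 23.55 CPM, a gap within counting error. For WBP5 they held 1 count each, and the limit of the test does not hold for counts so near 0. Replicate 4 of the SLC30A10 control set was apart for STAC, with 7.194 CPM, and for FUT9, with 13.23 CPM. In the second knockout, replicate 2 was apart for KCNJ12, with 2.882 CPM, and replicate 4 for STXBP2, with 4.964 CPM.

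For 6 of the 23 genes the effects of both knockouts differed by the test of the difference itself (edgeR quasi-likelihood, adjusted p under 0.05). Over all tested genes the effects differed in 31.3%, a larger share than among these 23. The log2 effect in the SLC30A10 knockout minus that in the second was 0.7714 for TMEM132E, 2.405 for CGREF1 and 0.8888 for KIAA1549L, which were all higher in both. Among genes lower in both it was 1.609 for IAH1 and 0.413 for NCR3LG1, which fell further in the second knockout. It was -2.288 for ADAMTS12, which fell further in the SLC30A10 knockout.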

How the results depend on the processing

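The counts of genes for the mean effect depended on the threshold and on how the difference between the knockouts was treated. At an adjusted p under 0.01, 1681 genes were higher and 1640 lower. With an adjusted p under 0.05 and a change of at least 1.5-fold, 377 were higher and 360 lower, and 83 and 99 were beyond both control sets. A model with a single term for editing gave 1659 and 1540, and 2 groups of 8 libraries gave 852 and 690. Judged by group means in place of single libraries, 1275 higher and 1256 lower genes lay beyond both control sets. Leaving out each library in turn gave 2301 to 2556 higher and 2215 to 2538 lower genes, and 158 to 190 and 193 to 242 beyond both control sets. It gave -0.25 to -0.12 for SLC30A10 (exact permutation p 0.0633 to 0.365). With the replicate number as a block, 2526 genes were higher and 2521 lower, and SLC30A10 had an exact permutation p of 0.297. The 150 and 196 beyond both control sets stayed the same. Non-overlap is judged on the same CPM whatever the model, so this says little. Same-numbered libraries of an experiment correlated by only -0.0614 to 0.0995, so the numbers were not taken to pair them. The DESeq2 Wald test gave 2354 and 2374 genes, of which 2347 and 2363 were shared with edgeR. With a mean count of at least 50, 135 lower genes were beyond both control sets, 131 of them among the 196. Of 2786 values for 100 single genes under 28 settings, 2714 kept direction and call, 70 lost the call, 48 of these under the 1.5-fold threshold, 2 gained it and none reversed. For SLC30A10, at its low counts, no difference was detectable at this depth.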
